A study of Mus musculus with 24 samples.

Results

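The brains of 6 mouse embryos that lack functional *Tfap2b* were divided into the secondary prosencephalon (SP) and the diencephalon, midbrain and hindbrain (DMH), and the RNA of both pieces was compared within each embryo. These 12 libraries, 6 of DMH and 6 of SP, are all the *Tfap2b*-/- libraries among the 24 of the series, and were taken by their genotype and tissue labels. The embryos were at embryonic stage E14.5, and 3 were labelled female and 3 male. DMH and SP libraries with the same sex and replicate number were taken to come from 1 embryo, a pairing read from the numbering. The other 12 libraries, from *Tfap2b*+/+ littermates dissected the same way, served as controls and share no embryo with the mutants. Both genotypes came from crosses of heterozygous parents. In the mutant allele a PGK-neo cassette sits in an exon of *Tfap2b* in every cell of the embryo, so the allele is neither restricted to the brain nor to 1 cell type, and transcripts of the interrupted gene can still be counted. The comparison asks which differences between the 2 brain regions persist without *Tfap2b*.

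AP-2 proteins, encoded by *Tfap2a* to *Tfap2e*, are transcription factors that bind a GC-rich palindrome as dimers and act in the neural crest, the skin, the kidney and the developing brain. *Tfap2b* is known for its expression in the embryonic midbrain and hindbrain, where noradrenergic neurons and inhibitory interneurons are among the cells that carry it. At this age the regional plan of the brain is set by transcription factors with sharp borders. *Emx1* marks the telencephalon, *Gbx2* and *Tcf7l2* the thalamus, *En1* and *Pax5* the midbrain and isthmus, and the *Hox* genes the hindbrain and spinal cord.

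Between 24717386 and 66844175 fragments per mutant library were counted on genes, and levels are given as CPM, counts relative to the library total after scaling by TMM factors over all 24 libraries. Of the 12 mutant libraries, those labelled female held at most 0.0353 CPM summed over Y-linked transcripts and those labelled male 125 to 205 CPM, while 1 control embryo labelled female held Y-linked transcripts in both pieces. The chi-square per gene between libraries of 1 group was at least 13.2 over the 12 pairs of mutant libraries, so none was a copy of another. Each sex and replicate number was taken as 1 embryo, so p-values measure the spread between embryos under that pairing. In bulk tissue, fewer cells of a type and less RNA per cell cannot be told apart.

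Several pieces stood apart by what they contained. The DMH library of female mutant 3, an embryo the study left out, held 633 CPM of 7 skeletal muscle genes against 6.04 to 7.50 CPM in the other 5 DMH libraries, 1718 CPM of 5 cartilage genes against 71.0 to 82.4 CPM, and 3419 CPM of 10 meningeal and mesenchymal genes against 741 to 1115 CPM. The SP library of the same embryo held 404 CPM of 13 diencephalic genes against 150.2 to 195 CPM in the other 5 SP libraries. The SP library of male mutant 1 had the lowest median rank correlation with its group, 0.973 against 0.991 to 0.994 in the other 5 across 14405 genes, and the highest share of unmapped fragments of all 24, 9.98%. The SP library of male mutant 3 was low in meningeal genes, at 163 CPM against 548 to 733 CPM. Summed over 20 *Hox* genes, the DMH libraries held 2.08, 0.283 and 475 CPM in female mutants 1 to 3 and 444, 18.7 and 524 CPM in male mutants 1 to 3, so that 3 of the 6 pieces carried little of the caudal hindbrain signal. The part of these libraries in the results below was not tested unless a value without them is given.

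**Figure D1:**
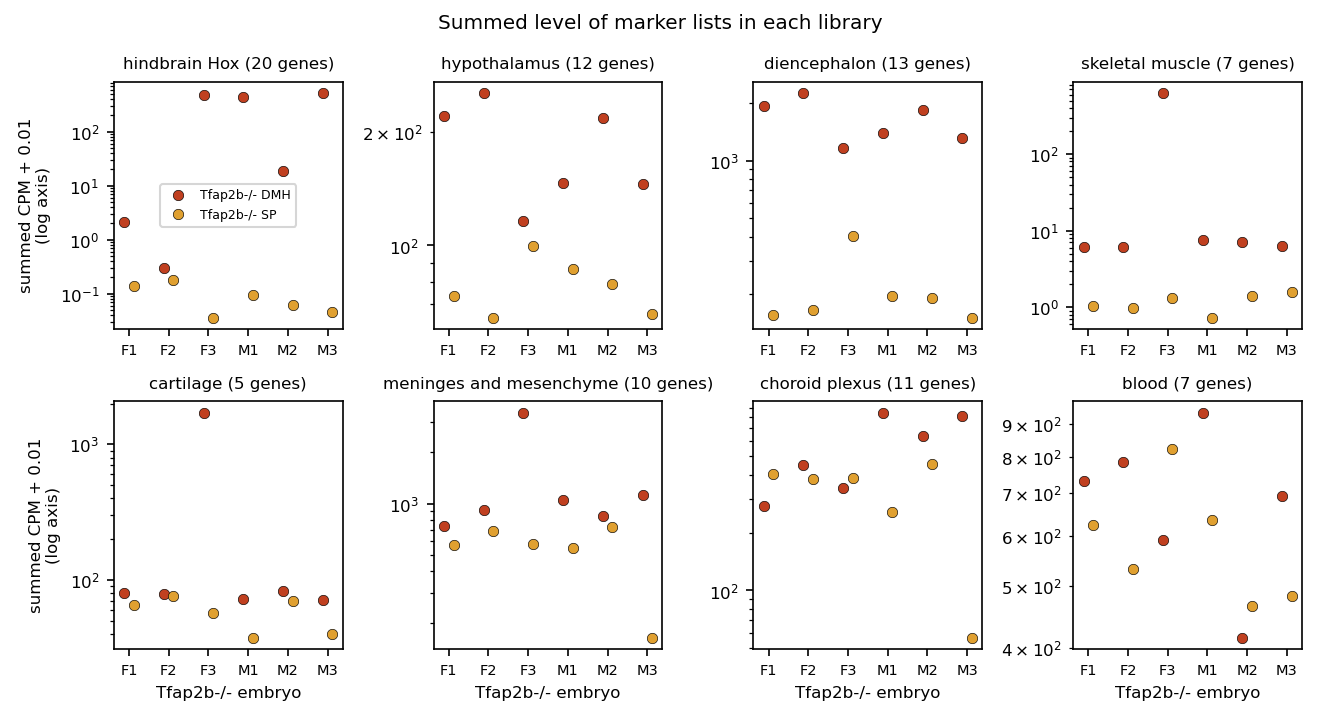
Summed level of 8 marker lists (CPM plus 0.01, log axis) in the DMH (red) and SP (yellow) libraries of the 6 *Tfap2b*-/- embryos, with F for female, M for male and the replicate number. The *Hox* sum ranged from 0.283 to 524 CPM in DMH, and the muscle and cartilage sums of female mutant 3 stood at 633 and 1718 CPM.

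*Tfap2b* itself checks the genotype. It was counted at 53.4, 50.8 and 51.0 CPM in the DMH of female mutants 1 to 3 and at 53.0, 55.2 and 51.0 CPM in that of male mutants 1 to 3. The SP of the same embryos, in the same order, held 3.57, 4.19, 3.11, 4.98, 3.86 and 2.79 CPM. Controls held 277 to 442 CPM (median 391) in DMH and 3.50 to 4.16 CPM (median 3.93) in SP. Neither region's range overlapped the other's in either genotype. The DMH level of mutants was 13.9% of that of controls and the SP level 96.2%. The remaining transcripts of the interrupted gene kept a regional difference, with a log2 fold change of DMH over SP of 3.82 ± 0.11 (SE, n = 6 embryos, edgeR adjusted p = 9.7e-08) in mutants and 6.57 ± 0.07 in controls. Whether these transcripts give any protein was not measured.

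The 250 bases before the RefSeq start site of *Tfap2b* are shown because they belong to the gene whose loss defines the mutants. Those of *Pou4f2* and *Mpped1* are shown because these genes had the smallest p among genes higher in DMH and higher in SP. Capitals mark matches to the AP-2 motif GCCNNNGGC, a palindrome that reads alike on both strands, and all runs are written 5′ to 3′ on the strand of the gene.
Tfap2b (GRCm38.p6, chr1:19211804-19212053, plus strand): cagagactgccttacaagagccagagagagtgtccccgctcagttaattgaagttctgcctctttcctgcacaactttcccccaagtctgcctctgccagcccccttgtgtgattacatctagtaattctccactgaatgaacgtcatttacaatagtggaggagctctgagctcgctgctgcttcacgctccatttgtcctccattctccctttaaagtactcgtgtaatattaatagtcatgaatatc
Pou4f2 (GRCm38.p6, chr8:78436648-78436897, minus strand): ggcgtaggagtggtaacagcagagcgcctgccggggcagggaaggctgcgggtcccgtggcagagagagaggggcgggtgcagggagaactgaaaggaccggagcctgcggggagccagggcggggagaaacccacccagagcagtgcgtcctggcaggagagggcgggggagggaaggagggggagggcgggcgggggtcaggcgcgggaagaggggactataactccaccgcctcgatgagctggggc
Mpped1 (GRCm38.p6, chr15:83779773-83780022, plus strand): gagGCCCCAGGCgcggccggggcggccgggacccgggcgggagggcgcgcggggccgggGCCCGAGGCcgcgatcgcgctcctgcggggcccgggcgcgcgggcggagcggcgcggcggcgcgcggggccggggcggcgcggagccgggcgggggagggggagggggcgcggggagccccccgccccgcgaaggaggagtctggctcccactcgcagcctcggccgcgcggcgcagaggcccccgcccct
The *Tfap2b* window lies within a longer model of the same gene in GENCODE vM21 and overlaps no exon, the *Pou4f2* window overlaps no gene, and 41 of the 250 bases of the *Mpped1* window lie in an exon of another *Mpped1* model. The motif was found 0 times in the first window, 0 times in the second and 2 times in the third. It was present in 20.6% of the windows of 11798 tested genes with an entry, in 19.8% of 1074 genes higher in DMH and in 20.1% of 572 genes higher in SP, and in 13.6% of 27025 genes with a window in all. A match is a description of letters and not a binding site.

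Most of the regional difference persisted in the absence of *Tfap2b*. A gene was called when its Benjamini-Hochberg adjusted p in edgeR was under 0.05 and its log2 fold change of DMH over SP was over 1 in size, a difference of 2 times. Of 16563 genes tested in mutants, 1515 were higher in DMH, which is 9.15% of the genes tested, and 839 were higher in SP, which is 5.07%. The DMH minus SP difference had 1 sign in all 6 embryos for 1453 and 812 of these, against 52.5% of all genes tested. The calls rest on the same 6 differences, so this shared sign describes them and gives no separate support. For a comparison with controls, both genotypes were fitted on the same 17442 genes. There 1780 genes (10.2%) were higher in DMH and 895 (5.13%) higher in SP in mutants, and 1875 (10.7%) and 911 (5.22%) in controls. Called in both genotypes were 1578 genes higher in DMH, 84.2% of the control calls and 88.7% of the mutant calls, and 788 genes higher in SP, 86.5% of the control calls and 88.0% of the mutant calls. The counts here and in the next paragraph include genes that passed the low-count filter through 1 region alone, among them *Hox* genes. Such genes had to be higher in that region. Requiring at least 10 counts in every library, which tests fewer genes, left 1182 genes higher in DMH in controls and 923 in both. No gene was called in opposite directions.

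Genes called in controls kept their direction in mutants. All 2786 had the same sign in the mutant fit, and 2461 of them (88.3%) had that sign in each of the 6 mutant embryos. The median ratio of the mutant to the control log2 fold change was 0.946, and 65 genes (2.33%) had a ratio under 0.5. Of the 420 control calls that were not called in mutants, 289 still had an adjusted p under 0.05 in mutants and missed the fold threshold. Conversely, of 2675 mutant calls, 2672 had the same sign in controls, with a median ratio of 1.02. The 3 exceptions, named after their values were seen, were *Apobr*, *Gcnt4* and *Map3k7cl*, whose log2 fold changes were 1.01, 1.28 and 1.68 in mutants and -0.32, -0.0015 and -0.17 in controls, none of them past the threshold there. Across genes the log2 fold changes of the genotypes correlated with Pearson's r = 0.968 over 17442 genes, which are not independent replicates.

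**Figure D2:**
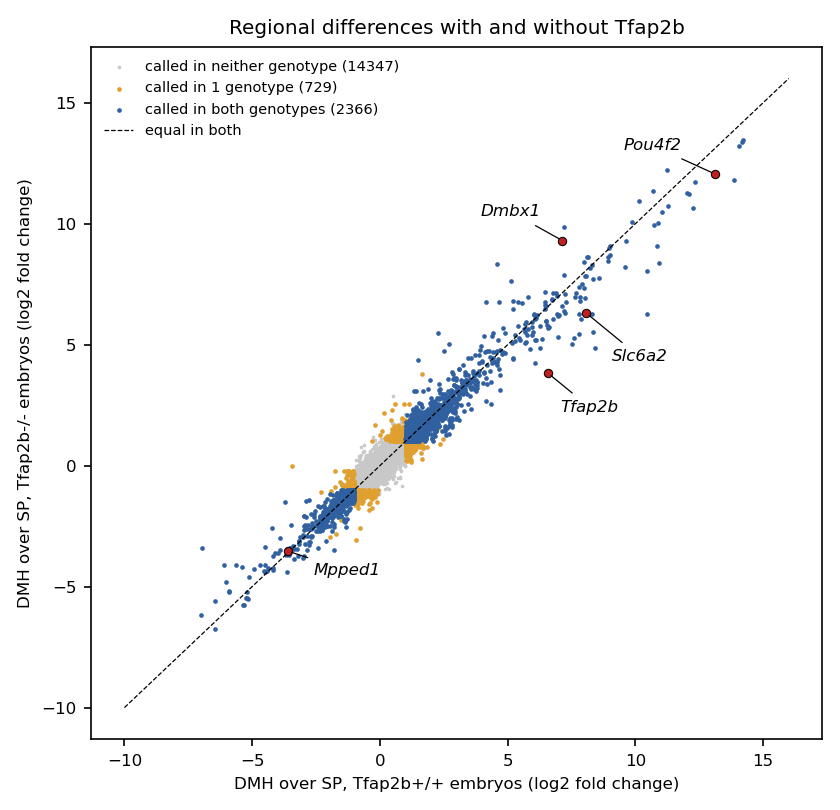
Log2 fold change of DMH over SP in *Tfap2b*+/+ embryos (x axis) against *Tfap2b*-/- embryos (y axis) for 17442 genes, coloured by whether a gene was called in both genotypes, in 1 or in neither, with the line of equal values dashed and 5 genes in red. The points follow the line (r = 0.968), *Tfap2b* lies below it (6.57 in controls, 3.82 in mutants), and *Pou4f2*, with 1 count in mutant SP, lies near the upper right end.

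The 10 genes with the smallest p among those higher in mutant DMH are described by their values. *Pou4f2*, *En1* and *Dmbx1* of these passed the filter on low counts through DMH alone, as no mutant SP library reached its cutoff of 0.311 CPM, so they had to be higher in DMH and their p gives no support. *Pou4f2*, a POU-domain factor of the dorsal midbrain and retina, was at 33.2 to 36.6 CPM (median 34.6) in DMH and had 1 count in total over the 6 SP libraries, a ratio of 7076-fold (95% counting interval 1270.1 to 279501) that covers counting error only. *En1*, a homeobox gene that maintains the midbrain, was at 25.6 to 43.4 CPM (median 32.2) in DMH with 2 counts over the 6 SP libraries. *Shisa3*, an inhibitor of Wnt and FGF signalling, had a log2 fold change of 7.07 ± 0.14, with 27.9 to 56.2 CPM in DMH and 0.177 to 0.389 CPM in SP. *Pax5*, a paired-box gene of the isthmus, followed at 6.04 ± 0.14, and *Tal1*, which specifies inhibitory neurons of the midbrain, at 4.45 ± 0.11. *Ebf2* and *Ebf3*, factors of early neuronal differentiation, had values of 3.41 ± 0.07 and 4.30 ± 0.12, and *Mab21l1* a value of 3.07 ± 0.07. *Dmbx1*, a homeobox gene of the midbrain, stood at 9.29 ± 0.25. The edgeR adjusted p in mutants of the 10 genes with the smallest p, 1 of them not reported here, was between 1.8e-08 and 8.2e-08.

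Among the genes higher in mutant SP, *Mpped1*, a phosphodiesterase gene of the cortical plate, had the smallest p. Its SP level was 192 to 348 CPM (median 232) and its DMH level 16.97 to 28.3 CPM (median 20.6), a log2 fold change of -3.53 ± 0.09 (adjusted p = 6.8e-08). *Dct*, dopachrome tautomerase, which is also expressed in telencephalic progenitors and passed the filter through SP alone, was at 9.73 to 15.6 CPM (median 14.1) in SP and at 0.0330 to 0.244 CPM in DMH. *Neurod2*, a factor of cortical excitatory neurons, had a log2 fold change of -3.44 ± 0.12, and *Gsx2*, which specifies the striatum, of -3.74 ± 0.14. *Ppp1r1b*, which encodes the phosphoprotein DARPP-32, was at -4.36 ± 0.14, the somatostatin receptor *Sstr2* at -2.54 ± 0.08 and the metalloprotease *Adamts18* at -3.10 ± 0.11. *Efnb2*, an ephrin ligand, *Cdon*, a co-receptor for Sonic hedgehog, and *Sall1*, a zinc finger gene of progenitors, were at -2.19 ± 0.08, -2.07 ± 0.08 and -1.71 ± 0.06.

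The genes of the pallium, which forms the cortex, were all higher in SP. All 15 members of the list were tested in mutants and all 15 were called, with a median log2 fold change of -3.61 beside 0.00 for all genes tested, and all 15 were called in controls. *Emx1*, a homeobox gene of the dorsal telencephalon, was at 55.4, 50.0 and 38.8 CPM in the SP of female mutants 1 to 3 and at 27.8, 46.8 and 42.8 CPM in that of male mutants 1 to 3. In DMH the same embryos held 1.30, 0.106, 2.23, 0.149, 0.274 and 0.132 CPM, so that every SP library lay above every DMH library. *Emx1* had a log2 fold change of -6.19 ± 0.57, *Tbr1*, a T-box factor of deep-layer neurons, of -4.22 ± 0.22, *Eomes*, which marks intermediate progenitors, of -4.61 ± 0.23, and *Neurod6* of -4.30 ± 0.19. The value of *Fezf2*, which specifies projection neurons, was -4.10 ± 0.27. SP of male mutant 1, the library with the highest unmapped share, held the highest level of *Neurod6* (1139 CPM against 428 to 631 CPM in the other 5), and without that embryo all 15 genes were still called.

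The subpallium, which forms the striatum and sends inhibitory interneurons to the cortex, was split. Of 16 members, 11 were higher in SP, 1 was higher in DMH and 4 were not called, with a median log2 fold change of -1.62. In controls 9 were higher in SP and 3 higher in DMH. *Dlx1* and *Dlx2*, which drive inhibitory neuron fate, were at -2.29 ± 0.20 and -2.96 ± 0.23, and *Lhx6*, a factor of migrating interneurons, at -3.49 ± 0.28. *Lhx8*, which marks cholinergic precursors, was called in mutants (-2.97 ± 0.53, adjusted p = 0.0018) and not in controls (-1.97, adjusted p = 0.085), and *Nkx2-1*, which specifies the medial ganglionic eminence, in the same way (-1.21 ± 0.20, and -0.73 with adjusted p = 0.2 in controls). The test of the difference between the genotypes gave an adjusted p of 1.0 for every member. *Penk*, which encodes the opioid precursor proenkephalin, was the member higher in DMH, at 6.33 to 35.0 CPM (median 21.1) in DMH and 3.32 to 6.40 CPM (median 3.82) in SP. *Ebf1* was at 0.98 ± 0.13 in mutants, just under the fold threshold, and at 1.31 in controls. Its SP level in male mutant 1 was the highest of the 6, and without that embryo it was called at 1.13. *Isl1* (-0.09 ± 0.15, adjusted p = 0.64), *Meis2* (-0.83 ± 0.11) and *Drd2*, the dopamine D2 receptor (0.73 ± 0.11), were not called.

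Hypothalamic genes went against the name of the SP piece, since the secondary prosencephalon as defined by anatomists includes the hypothalamus. Of 12 members, 9 were higher in DMH, none was higher in SP and 3 were not called, with a median log2 fold change of 2.28, and controls gave the same counts. *Otp*, a homeobox gene of neuroendocrine neurons, was at 46.5 to 86.0 CPM (median 68.4) in DMH and 4.27 to 18.9 CPM (median 6.71) in SP, with no overlap (log2 fold change 3.13 ± 0.35, adjusted p = 1.2e-04). *Nr5a1*, which marks the ventromedial nucleus, and *Nkx2-4* were at 0.854 to 5.27 CPM and 1.63 to 6.26 CPM in DMH. In SP they were at 0 in 3 libraries and at no more than 0.130 CPM in 2 others, while that of female mutant 3 held 1.01 and 1.89 CPM. *Six6* followed at 3.77 ± 0.90. *Six3* (0.14 ± 0.23, adjusted p = 0.63) and *Fezf1* (0.17 ± 0.19, adjusted p = 0.46), genes of the whole rostral forebrain, were not called. The count of 9 depended on the embryos, as 6 genes were called without male mutant 1, and 2 without the 3 mutant embryos low in caudal *Hox* genes, whose DMH pieces were also those highest in hypothalamic genes (217 to 253 CPM summed, against 116 to 147 CPM in the other 3). Without these 3 embryos and female mutant 3, a setting chosen after seeing the data that leaves 2 mutant embryos, the count was 9 and the median 3.60. The 12 members tested there include *Rax*, *Nr5a1* and *Nkx2-4*, at 0 in the SP of both embryos left, which had to be higher in DMH. Of the 9, 3 (*Rax*, *Nr5a1* and *Nkx2-4*) reached the cutoff of the filter in SP in female mutant 3 alone. Without that embryo these 3 passed through DMH alone and had to be higher there. Of the other 9 members, 6 were then called higher in DMH.

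Diencephalic genes were higher in DMH without exception. All 13 members were called in both genotypes, with a median log2 fold change of 4.32 in mutants and 4.01 in controls. *Tcf7l2*, a Wnt effector that marks the thalamus, was at 844, 1158 and 445 CPM in the DMH of female mutants 1 to 3 and at 547, 802 and 533 CPM in that of male mutants 1 to 3. In their SP it was at 22.7, 28.9, 164, 24.2, 41.9 and 20.8 CPM, with the value of female mutant 3 standing out. *Gbx2*, which guides thalamic axons, was at 21.3 to 59.0 CPM (median 34.5) in DMH and 2.22 to 13.5 CPM (median 3.75) in SP, where the highest value was again that of female mutant 3. *Shox2* was at 6.22 ± 0.71, *Sox14*, a factor of inhibitory precursors, at 6.77 ± 0.65, *Irx2*, an Iroquois gene with a sharp rostral border, at 6.24 ± 0.65 and *Lhx9* at 2.20 ± 0.17. Leaving out female mutant 3 raised these values to 7.15, 8.10, 6.99 and 2.37.

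Of 17 midbrain genes, 4 (*En1*, *En2*, *Dmbx1* and *Foxa2*) passed the filter through DMH alone. Such genes are described by their values and left out of the counts and medians of this list and of those that follow. Of the other 13, 12 were higher in DMH in mutants and 12 in controls, with a median of 5.49 in mutants. *Tal2* and *Gata3*, which act with *Tal1* to specify inhibitory neurons of the midbrain, were at 6.24 ± 0.19 and 7.01 ± 0.29. *Pax7*, a paired-box gene of the tectum, was at 37.2 to 65.6 CPM (median 49.7) in DMH and 0 to 0.657 CPM in SP. *En2*, the partner of *En1*, had 40.6 to 75.2 CPM (median 53.8) in DMH and at most 0.152 CPM in SP. *Pou4f1*, a factor of the tectum and habenula, was at 5.67 ± 0.43, and *Foxa2*, which marks the floor plate and dopaminergic precursors, at 7.14 ± 0.40. *Helt* was the member that did not pass (0.20 ± 0.24, adjusted p = 0.52), with 1.48 to 6.22 CPM in DMH and 1.82 to 3.60 CPM in SP. *Dmbx1* had the largest difference between genotypes in this list. Its DMH level was 29.3 to 45.8 CPM (median 34.5) in mutants and 16.4 to 27.8 CPM (median 20.4) in controls, ranges that did not overlap, and its log2 fold change exceeded that of controls by 2.14 ± 0.61, with an adjusted p of 1.0 in the edgeR test of the interaction. The SP levels behind these fold changes were at most 0.127 CPM in mutants and 0.232 CPM in controls.

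The isthmus, the signalling centre between midbrain and hindbrain, and the cerebellum were marked by 16 genes, of which 15 were tested in mutants, 5 of them passing through DMH alone. Of the other 10, 7 were higher in DMH in mutants, with a median of 3.21, and 8 in controls. *Ptf1a* was too low to be tested. *Pax2*, an early isthmic gene, was at 7.78, 4.07 and 39.6 CPM in the DMH of female mutants 1 to 3 and at 38.6, 13.6 and 45.2 CPM in that of male mutants 1 to 3, and at most 0.223 CPM in SP. The 3 low values were those of the embryos low in caudal *Hox* genes. *Atoh1*, which specifies granule cell precursors of the cerebellum, was at 1.84 to 5.35 CPM (median 3.37) in DMH and had 1 count over the 6 SP libraries. *Zic1*, a zinc finger gene of the dorsal neural tube, was at 0.80 ± 0.14 in mutants and was called only in controls (1.07), with a difference of -0.27 ± 0.24 between genotypes (edgeR adjusted p = 1.0). *Fgf17* (-0.12 ± 0.23) and *Fgf8* (0.78 ± 0.40), the isthmic growth factors, were not called. *Fgf8* was low in both regions, at 0.195 to 0.670 CPM in mutant DMH and 0.0353 to 0.402 CPM in mutant SP, and was higher in DMH in 4 of 6 mutant embryos and in 0 of 6 control embryos. Its log2 fold change in controls was -0.75 (edgeR adjusted p = 0.037), under the fold threshold, and the difference between genotypes was 1.56 ± 0.51 (unadjusted p = 0.0084, edgeR adjusted p = 1.0), which did not pass the adjustment.

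**Figure D3:**
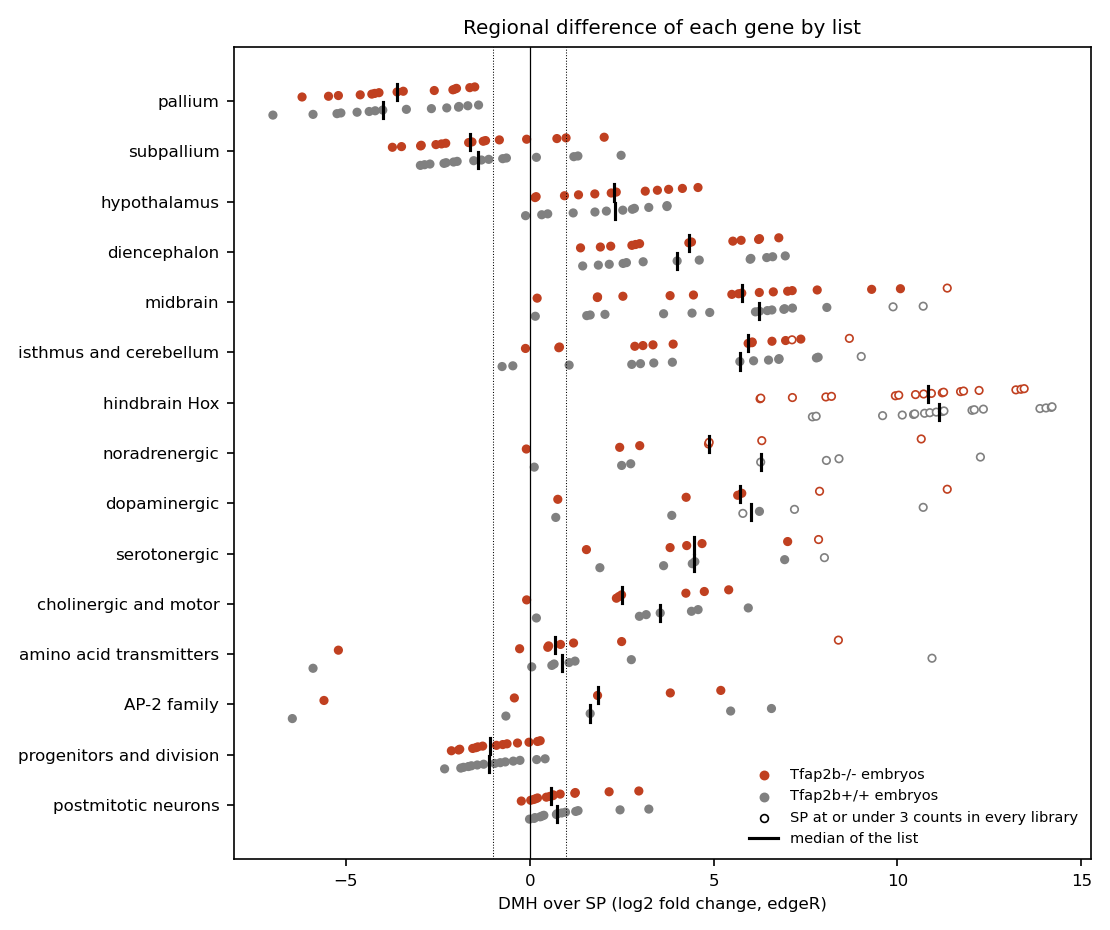
Log2 fold change of DMH over SP for each member of 15 gene lists in *Tfap2b*-/- embryos (red) and *Tfap2b*+/+ embryos (grey), fitted on the genes that passed the filter over 24 libraries, with black bars at the medians of all points shown, dotted lines at the fold threshold of 1 and open circles for genes with at most 3 counts in every SP library. In both genotypes the pallial genes lie left of the threshold and the diencephalic genes right of it, and the open circles of the *Hox* list are fitted against SP levels near 0.

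*Hox* genes, which give hindbrain and spinal cord segments their identity, were at or near 0 in all SP libraries. The sum over 20 *Hox* genes was at most 0.166 CPM in mutant SP. None of the 20 passed the filter on low counts in the fit of the mutants alone, and 3 of the 6 DMH libraries held few or no counts. With the controls included 18 passed, but only through DMH libraries, where they are high, so no count of calls is given for them. *Hoxa5* was at 0, 0.0353 and 81.4 CPM in the DMH of female mutants 1 to 3 and at 84.5, 0 and 81.6 CPM in that of male mutants 1 to 3, with 0 counts in every SP library. Set against 3 counts over the 6 SP libraries together, the mean DMH level was at least 2807-fold higher. *Hoxb8* gave a bound of 2625-fold and *Hoxb5* of 2404-fold. *Hoxa2*, whose domain reaches furthest forward, was at 0.106 to 10.8 CPM (median 6.89) in DMH and above 0 in all 6 embryos, with at least 410.3-fold over the same floor. In control DMH the *Hox* sum was 0.113 CPM in female 1 and 359 to 571 CPM in the other 5.

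Of 7 noradrenergic genes, 5 could be tested in mutants and 2 of these passed through DMH alone. Of the other 3, 2 were higher in DMH. *Dbh*, which encodes the enzyme that makes noradrenaline, did not pass the filter in mutants, being at 0, 0 and 0.405 CPM in the DMH of female mutants 1 to 3 and at 0.432, 0.213 and 0.494 CPM in that of male mutants 1 to 3. Control DMH held 1.13 to 3.35 CPM (median 3.25), above every mutant library. *Slc6a2*, the noradrenaline transporter, was at 1.71, 0.495, 2.25, 2.27, 2.56 and 2.08 CPM in mutant DMH, in the same order of embryos, and at 2.98 to 9.56 CPM (median 8.36) in control DMH, which was above every mutant value. It had 4 counts over the 6 mutant SP libraries, a ratio of 96.5-fold (95% counting interval 37.7 to 354), and 5 counts over the 6 control SP libraries, a ratio of 307-fold (132 to 946). The mean DMH levels of *Dbh* and *Slc6a2* were 8.86% and 25.0% of those of controls. The embryos low in caudal *Hox* genes, 3 mutants and 1 control, held the 3 lowest mutant values of *Dbh* and the lowest control value of both genes. Without them the levels were 13.6% and 25.9% of those of controls, with *Dbh* at 0.405 to 0.494 CPM in 3 mutants and 3.19 to 3.35 CPM in 5 controls. The edgeR adjusted p of the interaction was 1.0 for *Dbh* and *Slc6a2*, with standard errors of 1.91 and 0.97 on the log2 scale. *Th*, the first enzyme of catecholamine synthesis, was at 2.44 ± 0.21 in mutants and 2.50 in controls, and *Slc18a2*, the vesicular monoamine transporter, at -0.10 ± 0.15 (adjusted p = 0.6).

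Of 6 dopaminergic genes 4 passed through DMH alone, and of the other 2, 1 was higher in DMH in mutants (*Lmx1b*, 5.76 ± 0.55, and 6.70 without female mutant 3). *Slc6a3*, the dopamine transporter, was at 2.62 to 3.36 CPM (median 3.12) in mutant DMH and at most 0.130 CPM in SP, and *Pitx3*, needed by neurons of the substantia nigra, at 0.890 to 2.65 CPM (median 1.94) with 1 count over the 6 SP libraries. *Nr4a2*, which is also expressed in the cortex, was at 0.76 ± 0.14 and under the fold threshold. Of 6 serotonergic genes 5 were tested in mutants, 1 of them (*Slc6a4*) passing through DMH alone, and the other 4 were higher in DMH. *Gata2* and *Gata3* of these 4 are also members of the midbrain list. *Tph2*, the enzyme of serotonin synthesis in the brain, was at 6.11, 0.495 and 5.27 CPM in the DMH of female mutants 1 to 3 and at 5.29, 5.24 and 4.94 CPM in that of male mutants 1 to 3. *Slc6a4*, the serotonin transporter, showed the same pattern, with 0.389 CPM in female mutant 2 and 6.94 to 9.01 CPM in the other 5. *Fev*, the serotonergic transcription factor, was at 0.247 to 2.80 CPM (median 2.15) and did not pass the filter. Female mutant 2 was also the lowest of the 6 for *Slc6a2* and *Pax2*.

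Of 8 cholinergic and motor neuron genes 6 were tested in mutants, 2 of them passing through DMH alone, and 3 of the other 4 were higher in DMH. *Prph*, which encodes the neurofilament protein peripherin, was at 6.27, 3.96, 43.9, 41.7, 39.8 and 51.5 CPM in DMH in the same order of embryos and at 0.670 to 1.42 CPM in SP. *Tbx20*, a T-box factor of cranial motor neurons, was at 5.41 ± 0.47, and *Slc18a3*, the vesicular acetylcholine transporter, at 2.35 ± 0.47 in mutants and 3.55 in controls.

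Of 8 genes of amino acid transmitters, 1 (*Slc6a5*) passed through DMH alone, and of the other 7, 2 were higher in DMH, 1 was higher in SP and 4 were not called in mutants. *Slc17a6*, the vesicular glutamate transporter of subcortical neurons, was at 148 to 170.3 CPM (median 156) in mutant DMH and 60.7 to 79.5 CPM (median 66.8) in SP (log2 fold change 1.19 ± 0.06, adjusted p = 8.0e-07). *Slc17a7*, its cortical counterpart, went the other way, with 29.1 to 52.1 CPM (median 42.0) in SP and 0.566 to 2.11 CPM in DMH (-5.21 ± 0.24). *Slc6a5*, the glycine transporter of hindbrain and spinal neurons, was at 1.63, 0.672, 17.8, 17.9, 5.996 and 19.4 CPM in mutant DMH, in the same order of embryos, again low in the embryos low in caudal *Hox* genes, and had 5 counts over the 6 SP libraries. The genes of GABA synthesis and release differed less. *Gad1*, which makes most GABA in the embryo, was at 63.2 to 113 CPM (median 94.2) in DMH and 44.9 to 58.3 CPM (median 50.1) in SP, without overlap, and its log2 fold change of 0.83 ± 0.08 was under the threshold in mutants and over it in controls (1.07, difference -0.24 ± 0.14, adjusted p = 1.0). *Slc32a1*, the vesicular GABA transporter, was at 0.51 ± 0.10 and *Gad2* at -0.28 ± 0.09 (adjusted p = 0.026), both under the fold threshold.

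Of the 5 AP-2 genes, 3 were higher in DMH and 1 was higher in SP in both genotypes. *Tfap2a* was at 37.5, 36.9, 36.3, 33.3, 40.2 and 37.4 CPM in mutant DMH and at 0.353 to 1.30 CPM in SP, a log2 fold change of 5.19 ± 0.20 beside 5.46 in controls. *Tfap2c* was an SP gene, with 38.2 to 49.8 CPM (median 46.2) in SP and 0.330 to 3.06 CPM (median 0.587) in DMH (-5.60 ± 0.46). *Tfap2d*, expressed in the tectum, was at 1.84 ± 0.21, and *Tfap2e* was not called (-0.42 ± 0.34, adjusted p = 0.31). None of these 4 had a region by genotype difference past the threshold, and the DMH level of *Tfap2a* was 97.2% of that of controls.

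Of 14 genes of progenitors and cell division, 7 were higher in SP, none was higher in DMH and 7 were not called, with medians of -1.10 in mutants and in controls. *Mki67*, which marks cycling cells, was at 371 to 833 CPM (median 448) in SP and 92.7 to 151 CPM (median 129) in DMH (-1.94 ± 0.17), *Top2a* at -1.91 ± 0.12 and *Ccnd2*, a G1 cyclin, at -2.14 ± 0.10. *Pax6*, a factor of cortical progenitors, was at -1.29 ± 0.09, and *Sox2* at -0.62 ± 0.09 was under the fold threshold. Of 14 genes of postmitotic neurons, 4 were higher in DMH and 10 were not called, with a median of 0.58. The 4 were the neurofilament genes *Nefl* (2.96 ± 0.12), *Nefm* (2.15 ± 0.11) and *Ina* (1.23 ± 0.10) and the growth cone gene *Gap43* (1.22 ± 0.08), and *Tubb3* was at 0.45 ± 0.12. *Nefl* was lower in the DMH of female mutants 1 and 2, at 297 and 272 CPM, than in that of the other 4, at 403 to 478 CPM.

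**Figure D4:**
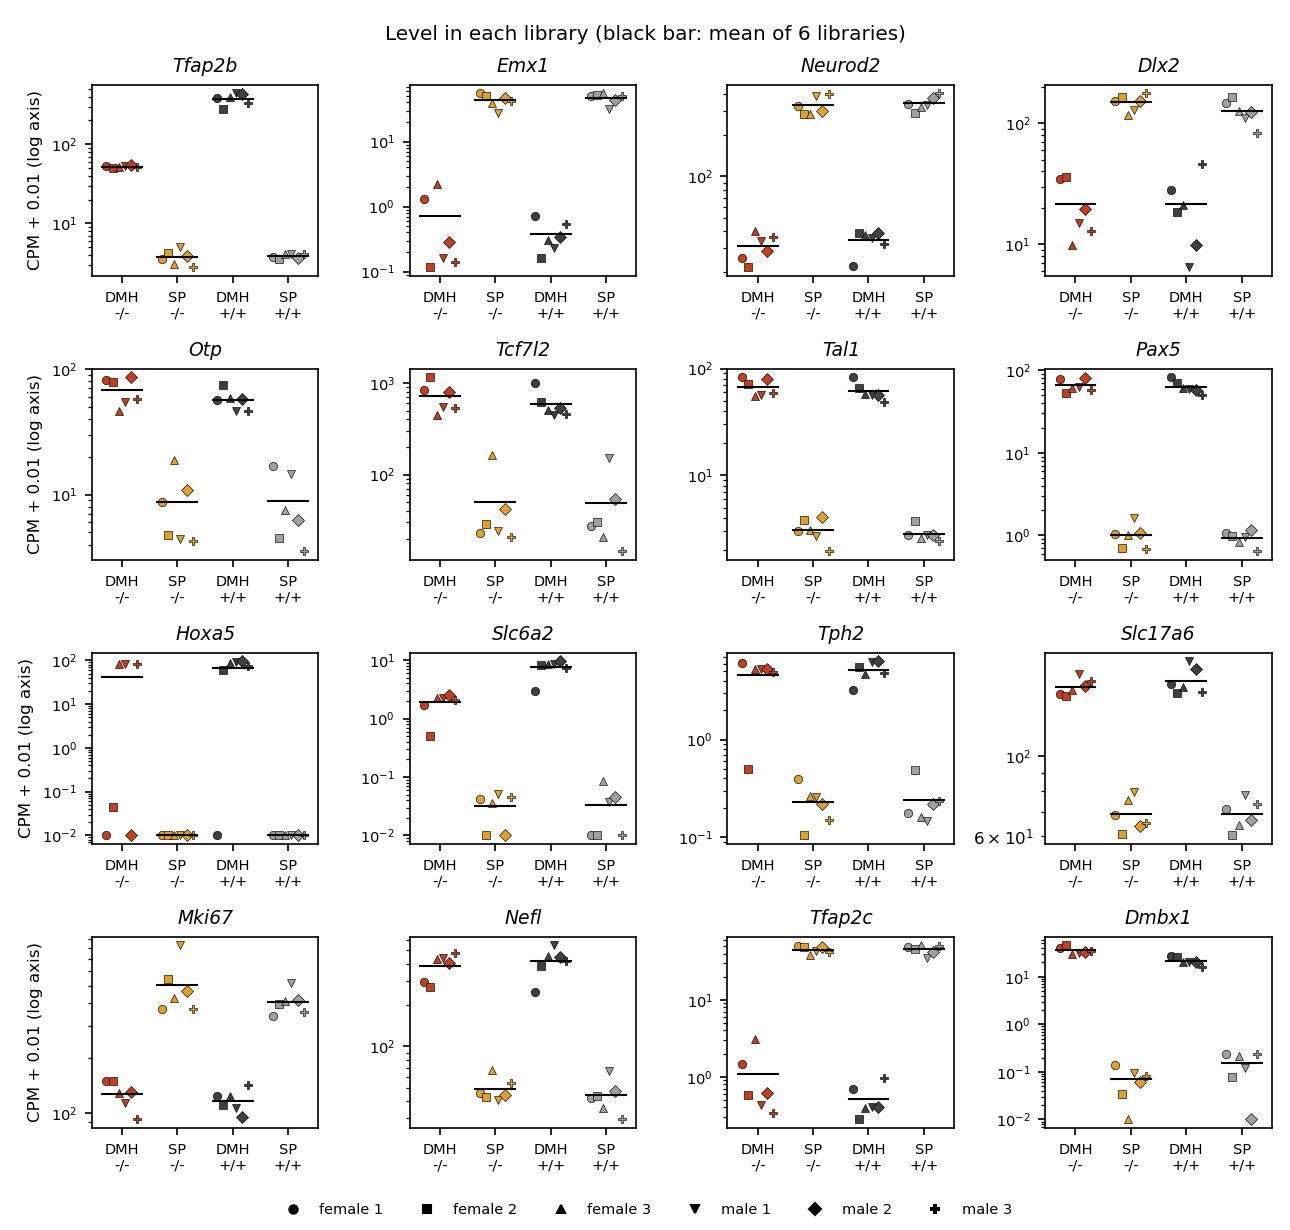
Level of 16 genes (CPM plus 0.01, log axis) in each library of DMH and SP in *Tfap2b*-/- (-/-) and *Tfap2b*+/+ (+/+) embryos, with 1 symbol per sex and replicate number and a black bar at the mean of 6 libraries. *Tfap2b* and *Slc6a2* are lower in the DMH of mutants than in that of controls without overlap, while for *Emx1*, *Tal1*, *Pax5*, *Slc17a6* and *Nefl* the 2 genotypes overlap and the 2 regions do not.

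The difference between the region effects of the genotypes was tested directly over the 24 libraries. *Tfap2b* was the 1 gene called among 17442 (0.00573%), with a difference in log2 fold change of -2.76 ± 0.13 and an edgeR adjusted p of 3.2e-08. At an unadjusted p under 0.05 there were 461 genes, 2.64% of those tested, 209 with a larger and 252 with a smaller DMH over SP value in mutants, and the second smallest adjusted p was 1.0. The median SE of this difference was 0.134. DESeq2 called *Tfap2b* alone as well, and the likelihood ratio test of edgeR added *Cpz*, a carboxypeptidase of the Wnt pathway (1.93, adjusted p = 0.038).

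A further 297 genes higher in DMH and 123 higher in SP were called in controls and not in mutants. Those with the smallest interaction p were *Drd2*, *Nxph1*, *Pbx3*, *Prkcb* and *Nalcn* among genes higher in DMH. Their log2 fold changes were 0.73, 0.78, 0.92, 0.95 and 0.92 in mutants and 1.20, 1.20, 1.18, 1.21 and 1.32 in controls, so each missed the fold threshold with its direction kept. *Drd2* was at 5.17 to 7.94 CPM (median 6.02) in mutant DMH and at 6.62 to 9.13 CPM (median 6.98) in control DMH, and *Nxph1*, a ligand of neurexins, at 32.1 to 56.2 CPM (median 46.9) and 43.9 to 68.5 CPM (median 56.9). *Prkcb*, a protein kinase C, and *Nalcn*, a sodium leak channel, were called in mutants without female mutant 2, both at 1.01. Among genes higher in SP they were *Kcne3*, *Efs*, *Gm43375*, *4930556H04Rik* and *Erf*. *Kcne3*, a potassium channel subunit, was too low to be tested in mutants alone, and the other 4 were at -0.84, -0.50, -0.40 and -0.81 in mutants and -1.21, -1.34, -1.27 and -1.04 in controls. For all 10 the adjusted p of the interaction was 1.0, so none was shown to differ between genotypes.

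Male and female mutants did not differ past the threshold in their regional differences. No gene was called for the interaction of region and sex among 16563 tested with edgeR's quasi-likelihood test, 396 genes (2.39%) had an unadjusted p under 0.05 and the smallest adjusted p was 0.922. DESeq2 and the likelihood ratio test called 2 genes each. *Tmem72* was called by DESeq2 alone (log2 difference, male minus female, 3.88) and *Hkdc1* by the likelihood ratio test alone (3.09), and both are named after their values were seen.

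The comparison was repeated without female mutant 3, the embryo with muscle and cartilage transcripts in its DMH and diencephalic transcripts in its SP. Then 1503 genes of 16481 tested were higher in DMH and 890 higher in SP. Of the calls made with all 6 embryos, 1426 (94.1%) and 815 (97.1%) were made again, and no gene changed direction among the calls. Fewer were made again without male mutant 1, 1361 (89.8%) and 775 (92.4%), and without the 3 embryos low in caudal *Hox* genes, 1310 (86.5%) and 716 (85.3%). In 14 brain lists, over the members that reached the cutoff of the filter in both regions in the other 5 embryos, the same genes were called with and without female mutant 3. Its removal moved values in the lists of other tissues. The log2 fold change of *Myh3* of the muscle list went from 4.40 to 1.63, and the median of 2 cartilage genes from 1.36 to 0.56. In the forebrain, *Nkx2-4* went from 4.56 to 6.98, *Nr5a1* from 4.14 to 6.31, *Six6* to 4.78, *Sox14* from 6.77 to 8.10, *Shox2* from 6.22 to 7.15, *Irx2* to 6.99 and *Emx1* from -6.19 to -7.05. Without that embryo *Nkx2-4* and *Nr5a1* passed the filter through DMH alone. Their SP levels were then at most 0.130 CPM, so both values are fits against SP near 0. *Pax7* of the midbrain went to 8.73 and *Tfap2c* to -6.23. Without female mutant 2 instead, *Nkx2-4* was at 3.96 and *Nr5a1* at 3.48.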

How the data were processed

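RNA of the DMH and SP of 12 embryos was enriched for poly(A) and sequenced as 24 strand-specific libraries. The authors trimmed reads with cutadapt (2.4), aligned them with STAR (2.6.1d) to GRCm38.p6 (mm10) and deposited the raw counts per gene that STAR writes for either strand setting, with no normalization. Counts of the reverse-strand column were used, and the unstranded column as an alternative. Rows that name no gene stayed out of library sizes; unmapped fragments made up 5.46% to 9.98% and multimapping ones 4.96% to 7.85% of a library. Of 54446 identifiers, 53229 matched GENCODE vM21 with their version. The annotation release the authors counted on is not given in the sources used here.

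Counts were fitted with edgeR (4.0.16, R 4.3.3) by its robust quasi-likelihood test, with TMM factors, filterByExpr and a block for each embryo, separately in mutants and controls. The interaction of region and genotype was fitted over 24 libraries and that of region and sex over 12. Benjamini-Hochberg adjustment ran over all genes tested, and standard errors were taken from the log2 fold change and its F value. Where SP held at most 3 counts in every library, a ratio with its Poisson 95% interval, or a bound against 3 counts over the 6 libraries, replaced the fitted fold change, and both cover counting error only. Levels are CPM, and figures were drawn with matplotlib (3.10.9) in Python (3.11.15). The fits were tested on simulated data.

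Same-numbered libraries of 1 sex were taken to come from 1 embryo. The study dissected both pieces from each brain but does not explain the numbering. Deviations of such pairs from the group means correlated at 0.0587 to 0.335 in mutants. The own number gave the highest correlation in 5 of 6 mutant embryos. Male mutant 3, at 0.0587, correlated higher with another number, at 0.0744. Members, gene lists and tests were chosen with earlier results of these data known. The text names list members, the 10 genes with the smallest p in each direction, genes called for an interaction, and up to 5 genes per direction called in controls alone. Alternatives were RLE factors, other filters, the likelihood ratio test, DESeq2 (1.42.0), other thresholds, no block and embryos left out. Some list members count in their lists and are not reported here by name. Promoters are those of the RefSeq table, without chromosome 18.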

Additional observations from a re-analysis of the deposited data

Results flagged for a closer look

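Female mutant 3 stood apart from the other 5 mutant embryos in the DMH minus SP difference of log2 CPM (prior count 2) of 5 named genes and in several summed levels. The differences were -0.23 for *Nr5a1* (4.14 to 6.57 in the other 5), -0.21 for *Nkx2-4* (4.47 to 6.82 in the other 5), 1.44 for *Tcf7l2* (4.26 to 5.32 in the other 5), 0.66 for *Gbx2* (2.96 to 3.65 in the other 5) and -2.84 for *Neurod2* (-3.73 to -3.40 in the other 5). Its DMH library held 633 CPM for the muscle genes (6.04 to 7.50 CPM), 1718 CPM for the cartilage genes (71.0 to 82.4 CPM) and 3419 CPM for the meningeal and mesenchymal genes (741 to 1115 CPM). Its SP library held 404 CPM for the diencephalic genes (150.2 to 195 CPM) and 5.25 CPM for 6 pituitary genes (0 to 0.0637 CPM).

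Male mutant 1 stood apart in 4 differences, with -5.30 for *Neurod6* (-4.20 to -3.84 in the other 5), 0.25 for *Ebf1* (0.90 to 1.23 in the other 5), 1.12 for *Slc32a1* (0.25 to 0.48 in the other 5) and 0.60 for *Pbx3* (0.90 to 1.07 in the other 5). Its SP library held 5945 CPM for the pallial genes (3727 to 4538 CPM) and 48.3 CPM for the dopaminergic genes (30.4 to 36.6 CPM). Female mutant 2 stood apart in 1.87 for *Tph2* (3.81 to 4.66 in the other 5), 0.86 for *Slc6a4* (4.59 to 5.37 in the other 5) and 8.84 for *Pou4f2* (9.21 to 9.31 in the other 5). Male mutant 3 stood apart in 6.52 for *Tfap2a* (4.62 to 5.13 in the other 5), and its SP library held 163 CPM for the meningeal and mesenchymal genes (548 to 733 CPM).

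These 21 values came from 159 groups of 6 libraries or embryos, in which the gap to the nearest of the others was set against Dixon's 95% critical value. Chance flags about 1 in 20 groups, and genes of 1 embryo are not independent. The difference between the genotypes in the region effect of *Tfap2b*, -2.76 on the log2 scale, was the 1 difference between groups past its test.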

How the results depend on the processing

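No gene called in mutants was called in the opposite direction without female mutant 3, without male mutant 1, without the 3 embryos low in caudal *Hox* genes or without the embryo block. The block rests on the pairing by number. Without the replicate block 1552 and 834 genes were higher in DMH and in SP, and 1496 and 814 of the calls were made again. Counts in mutants are over the genes that passed the filter in mutants, while those in controls and in both genotypes are over the larger set that passed in 24 libraries, so a count in both can exceed that in mutants. With each embryo left out in turn the counts ranged from 1418 to 1666 and from 810 to 890 in mutants, from 1826 to 1970 and 899 to 950 in controls, and from 1497 to 1590 and 767 to 805 for both genotypes, with 1 interaction call in every such fit and 0 to 3 for sex. At the thresholds of the study's other comparisons, an adjusted p under 0.2 and a log2 fold change over 0.5, there were 3387 and 2425 genes higher in DMH and in SP in mutants, 3730 and 2601 in controls, and 3286 and 2089 in both. With no fold threshold there were 4569 and 4599 genes higher in DMH and in SP in mutants, 5969 and 5998 in controls, and 4619 and 4375 in both. Requiring at least 10 counts in every library, which tests fewer genes, gave 1182 genes higher in DMH in controls and 923 in both. The interaction with genotype was called for 3 genes with no filter (*Tfap2b*, *Myl1* and *Myl3*), 2 by the likelihood ratio test, 3 without the 4 embryos low in caudal *Hox* genes (3 mutants and 1 control), where *Vxn* (-1.15) and *Oaf* (1.40) joined *Tfap2b*, and 5 when female mutant 3 was also left out, a setting chosen after seeing the data that leaves 2 mutant embryos. That with sex was called for 2 genes by the likelihood ratio test, 2 by DESeq2 and 3 without female mutant 3 (among them *Scn10a* and *Pirt*, genes of sensory ganglia). Of the genes named, 7 changed sign under an alternative, and none of these was called with all embryos. Without the embryos low in caudal *Hox* genes, and then also without female mutant 3, *Six3* was at -0.49 and -0.48, *Fezf1* at -0.24 and -0.13, *Helt* at -0.33 and -0.35 and *Vxn* at -0.094 and -0.16. With each embryo left out in turn, *Six3* ranged from -0.045 to 0.31, *Fezf1* from -0.011 to 0.30, *Helt* from -0.046 to 0.35, *Isl1* from -0.18 to 0.066, *Fgf17* from -0.26 to 0.044 and *Slc18a2* from -0.18 to 0.051. The cause was not tested. Depth limits genes near 0 in SP, where, in mutants, 3 counts correspond to 0.0710 to 0.126 CPM per library.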

Other observations

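Markers of other tissues were counted for what the dissected pieces could hold besides brain, leaving out genes that passed the filter through 1 region alone. Beside these counts, 9.15% of all genes tested in mutants were higher in DMH and 5.07% higher in SP. Genes of sensory ganglia were higher in mutant DMH for 3 of 6 tested, with sums of 142 to 186 CPM in DMH and 46.0 to 59.6 CPM in SP, although *Pou4f1* and *Isl1* of this list are brain genes too. Pituitary genes were higher in DMH for 1 of 1 tested, at 16.5 to 44.6 CPM in DMH. The choroid plexus list had 4 of 11 tested higher in DMH, with sums of 276 to 847 CPM in DMH and 56.6 to 455 CPM in SP, and 10 of 11 in the 2 embryos left when those low in caudal *Hox* genes and female mutant 3 were left out. *Otx2* of that list is a midbrain gene too.

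Meningeal and mesenchymal genes were higher in DMH for 3 of 10 tested, and for 2 without female mutant 3, 0 without male mutant 1 and 5 without the 3 embryos low in caudal *Hox* genes. The muscle list had 1 of 2 tested and the cartilage list 0 of 2 tested. None of 7 blood genes was called in either direction by edgeR, with medians of 0.20 in mutants and 0.07 in controls. In the eye list, 2 of 3 tested were higher in DMH, and *Dct*, which passed through SP alone, was at -6.75. *Six6* and *Rax* of that list are hypothalamic genes too. The part of these tissues in the regional differences was not tested.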
